A study of Caenorhabditis elegans with 36 samples.

Results

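The nuclear RNAi and H3K9 methylation genes examined here are *nrde-1*, *nrde-2*, *nrde-3*, *nrde-4*, *set-25*, *set-32* and *met-2* of *Caenorhabditis elegans*. They were found by their WormBase gene identifiers among the genes and other features counted in the study, and all 7 were present among 31106 features. Here they are read as targets of small RNAs: each value is the level of small RNAs assigned to the gene, from either strand, and not the level of its mRNA.

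Small RNAs of 18 to 30 nt were sequenced from the lysate (input) and from an immunoprecipitation (IP) of HRDE-1, taken from the same lysate, in 6 genotypes with 3 biological replicates each, which gave 36 libraries in 12 conditions. All 6 strains carried *hrde-1* tagged at its own locus with GFP and 3xFLAG (*tor125*), so that the strain called wild-type was wild-type except for the tag. The mutants were *hrde-2(qe20)*, *simr-1(cmp36)*, *mut-2(ne298)*, *mut-2(ne298); hrde-2(qe20)* and *simr-1(cmp36) mut-2(cmp306)*. Since *simr-1 mut-2* carries another *mut-2* allele than *mut-2*, a comparison between these strains is also one between alleles. Each replicate was about 100000 adults grown for 68 h at 20 °C and collected as 1-day-old adults, whole animals that hold germline and soma. A lower level can therefore come from fewer cells that carry a small RNA or from less of it per cell, which bulk libraries cannot tell apart.

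In nematode RNAi, RNA-dependent RNA polymerases copy a targeted transcript into 22G-RNAs, which are loaded into worm-specific Argonautes. HRDE-1 is the nuclear Argonaute of the germline and NRDE-3 that of the soma, and both bring the nuclear RNAi machinery to the nascent transcripts of their targets. NRDE-2 joins the Argonaute on the nascent transcript, NRDE-1 associates with pre-mRNA and chromatin, and NRDE-4 is needed for NRDE-1 to be recruited, after which elongation by RNA polymerase II is inhibited and H3K9 methylation is laid down. MET-2 makes mono- and dimethylated H3K9, SET-25 makes the trimethylated form, and SET-32 is a putative histone methyltransferase needed for nuclear RNAi silencing to be established. HRDE-2 and SIMR-1 act in the loading of HRDE-1 and in small RNA production, and MUT-2 adds poly(UG) tails that mark RNAs as templates for 22G-RNA synthesis.

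In WS258 coordinates as counted by the authors, *nrde-1* (WBGene00007577) lies on the plus strand of chromosome III from 3713463 to 3718745. *nrde-2* (WBGene00011333) lies on the minus strand of chromosome II from 10242595 to 10247638, and *nrde-3* (WBGene00019862) on the plus strand of chromosome X from 372235 to 376900. *nrde-4* (WBGene00001584) lies on the minus strand of chromosome IV from 7646200 to 7654230. Among the methyltransferase genes, *set-25* (WBGene00012802) lies on the minus strand of chromosome III from 13283892 to 13293088. *set-32* (WBGene00008062) lies on the plus strand of chromosome I from 9519244 to 9521275, and *met-2* (WBGene00019883) on the plus strand of chromosome III from 8375300 to 8380833. All 7 are protein-coding, values count reads over their exons, and the summed exons run from 1653 bases in *set-32* to 4116 bases in *met-2*. Exon overlap with other genes was limited to 91 bases of *nrde-1*, 3.54% of its exons, shared with *C14B1.8*, and 66 bases of *nrde-4*, 2.62% of its exons, shared with *cima-1* and *hmg-5*.

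Counts assigned to features totalled 4276687 to 10307879 in the 18 inputs and 8207541 to 17449202 in the 18 IPs, and levels are given as counts per 1000000 of this total (RPM). Reads on structural RNAs made up 8.31 to 34.9% of the inputs and 1.17 to 3.19% of the IPs, with the highest input shares, 30.7 to 34.9%, in *mut-2*. Fits with protein-coding genes and pseudogenes alone, which leave out these reads along with other features, are among the alternatives given below. The part of these shares in the results was not tested otherwise. Small RNAs on a mutated gene do not check a label, but those on *simr-1* averaged 32.2 RPM in *simr-1* inputs against 149 RPM in wild-type inputs. The wild-type replicate 2 tables carried the number of replicate 1 in their headers, and the label was kept. All libraries of the 3 genotypes with a *mut-2* allele, and 1 replicate each of wild-type and *hrde-2*, had a name ending in the deposited tables whose meaning was not stated, so that this ending and *mut-2* can hardly be told apart. Calls that changed in a fit with the ending as a term are given with the gene or with the dependence on processing at the end.

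In wild-type inputs, the 7 genes spanned a wide range of levels, which were compared per kilobase of exon. *nrde-2* was highest at 109 ± 9.1 RPM per kb (SD, n = 3). It was followed by *set-25* at 66.1 ± 7.83, *set-32* at 60.02 ± 7.36 and *met-2* at 44.4 ± 11.2 RPM per kb, and each of these overlapped the next in its replicates. *nrde-1* at 28.9 ± 2.16 and *nrde-4* at 18.1 ± 4.71 RPM per kb came next without overlap, and *nrde-3* was lowest at 4.49 ± 0.785 RPM per kb. Even *nrde-3* lay above the median of the 19711 protein-coding genes, which was 1.75 RPM per kb, at the 60.2nd percentile, and *nrde-2* lay at the 96.9th. The order was another one in the HRDE-1 IP of wild-type. *nrde-2* was again first at 145 ± 32.7 RPM per kb, but *nrde-1* was second at 55.5 ± 4.38, ahead of *met-2* at 35.8 ± 3.34, *set-25* at 26.7 ± 1.14 and *set-32* at 20.0 ± 2.07 RPM per kb. *nrde-3* at 11.1 ± 0.597 RPM per kb now stood above *nrde-4* at 7.63 ± 1.2, and no neighbours in this order overlapped.

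**Figure D1:**
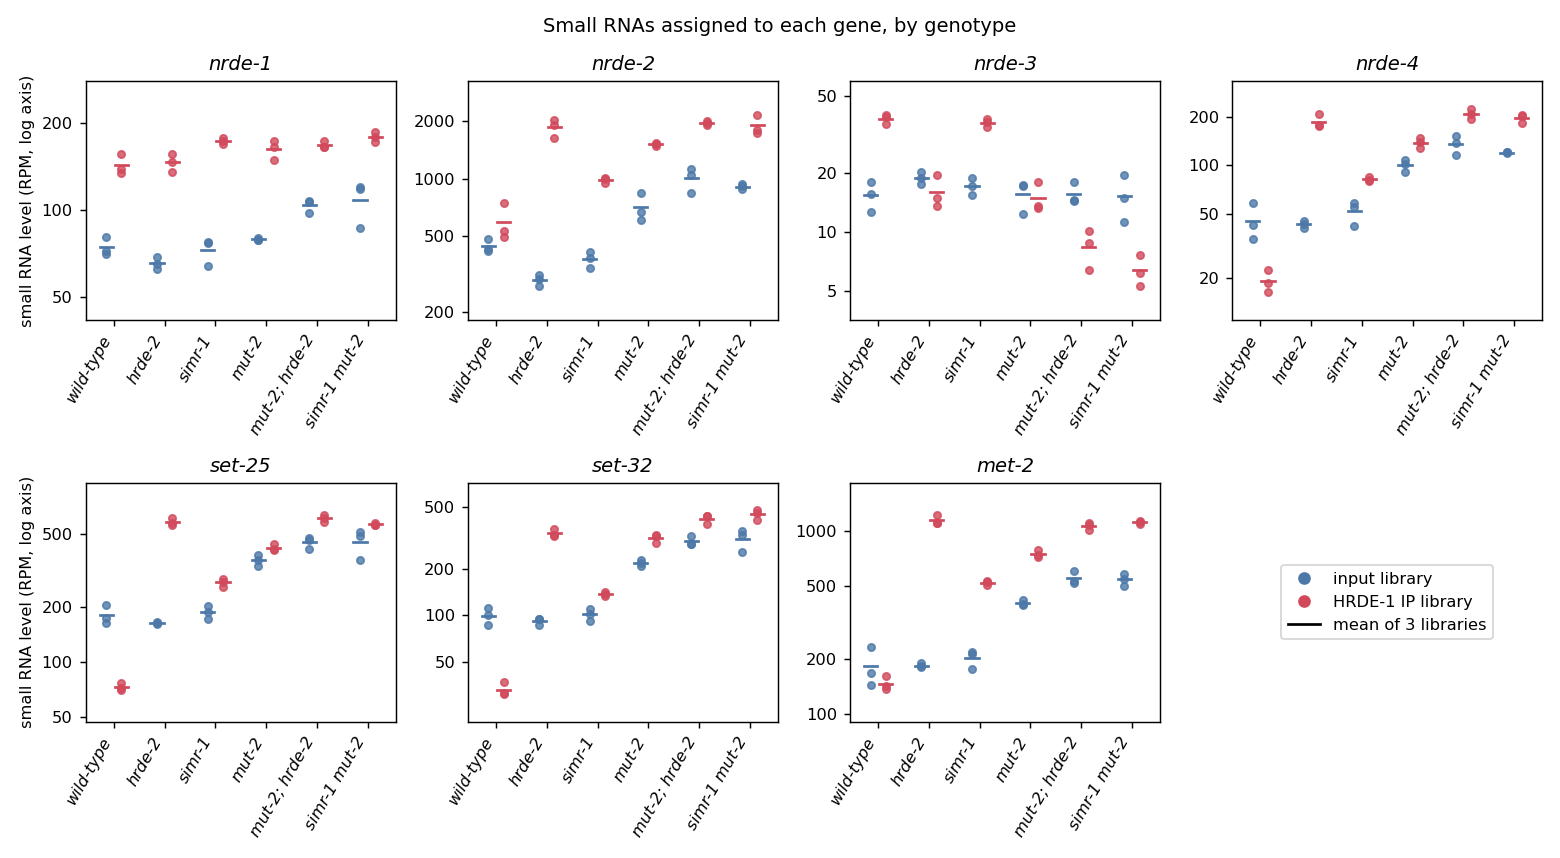
Level of small RNAs (RPM, log axis with its own range per panel) assigned to each of the 7 genes in each of the 36 libraries, by genotype, with inputs in blue, HRDE-1 IPs in red and bars at the mean of 3 libraries. In wild-type, the IPs of *nrde-1*, *nrde-2* and *nrde-3* lie above the inputs and those of *nrde-4*, *set-25* and *set-32* below. In *hrde-2* the IPs of all genes but *nrde-3* lie above, and those of *nrde-3* overlap its inputs. How many of all features separate in this way was not counted.

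The first question was which of these genes differed in small RNA level between the HRDE-1 IP and the input of wild-type. A gene without a call, or called lower, still had small RNAs in the IP. A call required that IP and input differed by 2-fold or more, with an adjusted p no higher than 0.05 and a mean of 10 RPM or more in the higher fraction. Of the 7 genes, 2 were called higher in the IP, *nrde-3* and *nrde-1*, and 1 was called lower, *set-32*. The same calls were made for 17.3% of all 14477 features tested in the higher direction and for 16.7% in the lower. The median log2 fold change over the 7 genes was 0.04, beside 0.15 over all features tested.

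*nrde-3*, the somatic nuclear Argonaute, had 12.7, 18.1 and 15.6 RPM in inputs of wild-type against 35.8, 39.7 and 38.8 RPM in the IPs. All IPs lay above all inputs, and the gene was 3.14-fold higher in the IP (log2 1.65, SE 0.18, adjusted p = 0.000151 by the quasi-likelihood test of edgeR). *nrde-1* stood at 71.8, 80.5 and 70.2 RPM in the inputs and at 155, 138 and 134 RPM in the IPs. These did not overlap either, with a log2 fold change of 1.28 (SE 0.14, adjusted p = 0.000163), which was 0.94 and not called when libraries were scaled by their totals alone. *nrde-2*, the partner that joins the Argonaute, stood at 427, 485 and 416 RPM in the inputs and at 496, 741 and 531 RPM in the IPs, a difference that did not reach 2-fold (log2 0.76, SE 0.19, adjusted p = 0.00695).

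*nrde-4*, by contrast, had 43.0, 58.5 and 35.2 RPM in inputs of wild-type against 18.6, 22.5 and 16.5 RPM in the IPs. The groups did not overlap, but the log2 fold change of -0.89 (SE 0.19, adjusted p = 0.0037) was short of 2-fold. The same held for *set-25*, the H3K9 trimethylase gene, with 174, 204 and 164 RPM in the inputs and 70.4, 76.4 and 71.9 RPM in the IPs (log2 -0.96, SE 0.15, adjusted p = 0.000654). *set-32*, with 99.6, 111 and 86.9 RPM in the inputs and 30.8, 37.0 and 31.4 RPM in the IPs, was lower in the IP by 2.36-fold (log2 -1.24, SE 0.15, adjusted p = 0.000246). *met-2*, the mono- and dimethylase gene, stood at 168, 234 and 145 RPM in the inputs and at 142, 163 and 137 RPM in the IPs, which overlapped (log2 0.04, SE 0.18, adjusted p = 0.839). With libraries scaled by their totals alone, or with protein-coding genes and pseudogenes alone, *nrde-4* and *set-25* passed the call as lower too, and *set-25* also did so without replicate 2 (log2 -1.01) and in DESeq2 (log2 -1.01).

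The next question was how the HRDE-1 IP differed from the input in the absence of HRDE-2. In *hrde-2*, 5 of the 7 genes were called higher in the IP, namely *nrde-2*, *nrde-4*, *set-25*, *set-32* and *met-2*, and none was called lower. Over all 12841 features tested, 26.5% were called higher and 17.3% lower. The median over the 7 genes was a log2 fold change of 1.65, beside -0.34 over all features tested.

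In *hrde-2*, *met-2* stood at 183, 180.5 and 190.5 RPM in the inputs and at 1113, 1228 and 1115 RPM in the IPs, which is 5.33-fold (log2 2.41, SE 0.13, adjusted p = 1.19e-06). *set-25* stood at 164, 160.3 and 165 RPM in the inputs and at 612, 576 and 563 RPM in the IPs (log2 1.60, SE 0.10, adjusted p = 1.86e-06). *set-32* went from 86.9, 94.0 and 94.9 RPM in the inputs to 361, 330 and 323 RPM in the IPs (log2 1.65, SE 0.10, adjusted p = 1.81e-06). Each of the methyltransferase genes was thus higher in every IP than in every input, and in every *hrde-2* IP than in every wild-type IP. These separations were not counted over all features. Among the *nrde* genes, *nrde-2* reached 1641, 2033 and 1908 RPM in the IPs from 273, 298 and 311 RPM in the inputs (log2 2.44, SE 0.16, adjusted p = 2.36e-06). *nrde-4* reached 208, 178 and 175 RPM in the IPs from 40.9, 45.0 and 43.4 RPM in the inputs (log2 1.88, SE 0.11, adjusted p = 1.29e-06). These 5 genes kept their calls under every alternative tried.

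*nrde-1* and *nrde-3* were not called. *nrde-1* stood at 64.9, 68.6 and 62.4 RPM in the *hrde-2* inputs and at 156, 135 and 147 RPM in the IPs, close to its wild-type values, with a log2 fold change of 0.92 (SE 0.10, adjusted p = 2.7e-05) that was not called. It was between 0.57 and 0.69 when a replicate was left out. These fits kept the count filter at 3 libraries although fewer were fitted, and tested 10756 to 11305 features instead of 12841. The filter and scaling thus changed along with the replicate, and their part was not tested. *nrde-1* passed the call as higher under 4 alternatives. It was at 1.12 in DESeq2, 1.16 with library totals alone, 1.09 with the name ending as a term and 1.23 without the count filter. Whether *nrde-1* was called in *hrde-2* therefore depended on the processing. *nrde-3* stood at 20.3, 18.97 and 17.7 RPM in the inputs and at 19.6, 13.5 and 15.0 RPM in the IPs, which overlapped (log2 -0.49, SE 0.15, adjusted p = 0.015).

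The difference between the strains was tested directly, as the change of the IP-over-input ratio from wild-type to *hrde-2* over the 12 libraries of both. Because these libraries were scaled together, the value is not the exact difference of the separate estimates above. Of the 7 genes, 5 had a higher ratio in *hrde-2*, and 1, *nrde-3*, a lower one, by the same rule without the RPM minimum. Among all 15444 features tested, 33.7% passed as higher and 36.1% as lower. The median over the 7 genes was 2.72 on the log2 scale, beside -0.07 over all features tested. The largest difference was that of *set-32*, at 9.38-fold (log2 3.23, SE 0.19, adjusted p = 1.21e-08), followed by *nrde-4* at 8.72-fold (log2 3.13, SE 0.24, adjusted p = 3.44e-08) and *set-25* at 7.53-fold (log2 2.91, SE 0.18, adjusted p = 1.33e-08). *met-2* followed at 6.598-fold (log2 2.72, SE 0.24, adjusted p = 1.29e-07) and *nrde-2* at 4.08-fold (log2 2.03, SE 0.26, adjusted p = 6.66e-06). *nrde-3* fell by 1.79 on the log2 scale (SE 0.24, adjusted p = 1.07e-05), and *nrde-1* differed by -0.02 (SE 0.17, adjusted p = 0.935). All of these calls held under every alternative, over which *set-32* ranged from 2.80 to 3.46 and *nrde-3* from -2.22 to -1.55.

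**Figure D2:**
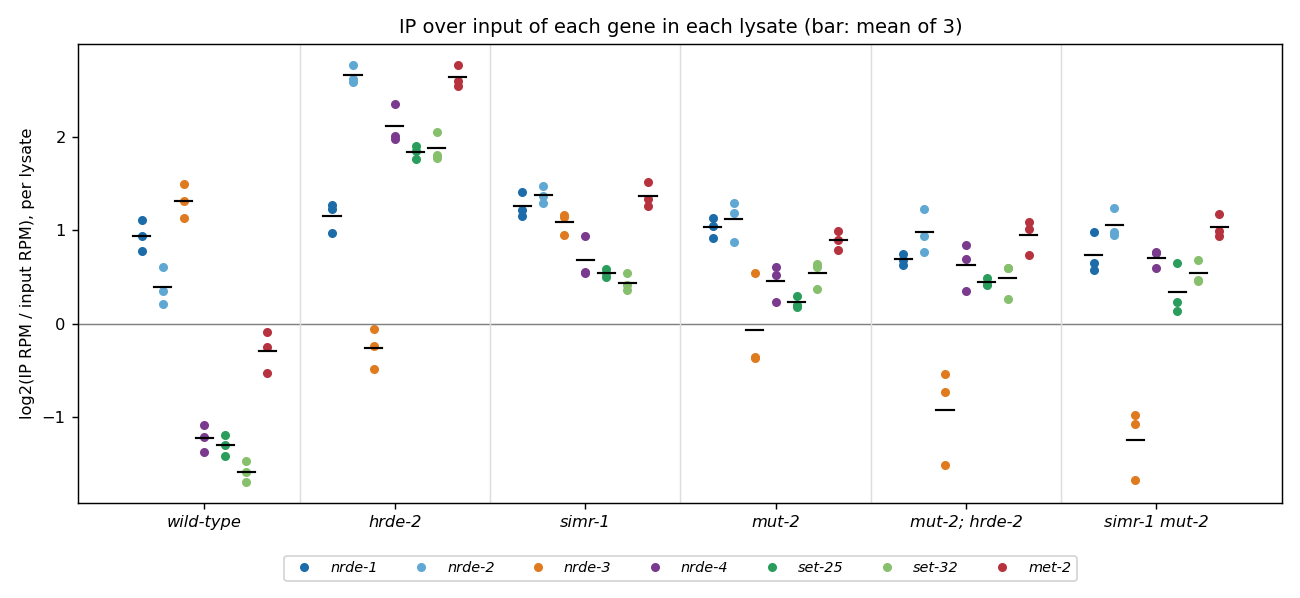
The log2 ratio of IP RPM to input RPM of each gene in each lysate, by genotype, with a bar at the mean of 3 lysates and libraries scaled by their totals. The ratios of *nrde-4*, *set-25* and *set-32* are below 0 in each wild-type lysate and above 0 in each lysate of the 5 mutants, while those of *nrde-3* are above 0 in wild-type and *simr-1* and below 0 in *hrde-2* and both strains with a second mutation.

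Ratios between genes within a lysate do not depend on how libraries are scaled. With *nrde-1* of the same lysate as the reference, *set-32* had a log2 IP-over-input ratio lower by 2.53 ± 0.244 (SD, n = 3 lysates) in wild-type and higher by 0.72 ± 0.162 in *hrde-2*. *nrde-2* moved from -0.55 ± 0.368 to 1.501 ± 0.258 against the same reference, and *nrde-3* from 0.37 ± 0.0137 to -1.42 ± 0.0844. In each of these genes the lysates of the strains did not overlap, which was not counted over all features. The reference *nrde-1* is itself among the genes examined, and another reference was not tried. In RPM, which does depend on the scaling, *nrde-1* ranged over the IPs from 134 in wild-type to 185 in *simr-1 mut-2*.

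In *simr-1*, with libraries scaled by their totals, the mean lysate ratios of all genes but *nrde-1* lay between those of wild-type and *hrde-2*. How many of all features lie between in this way was not counted. Called higher in the IP were 2 of the 7 genes, *nrde-2* and *met-2*, and none was called lower, where 4.98% and 7.75% of all 13711 features tested were called in these directions. *nrde-2* stood at 386, 412 and 340 RPM in the inputs and at 995, 1005 and 947 RPM in the IPs (log2 1.03, SE 0.10, adjusted p = 1.64e-05). *met-2* stood at 220, 213 and 177 RPM in the inputs and at 528, 538 and 507 RPM in the IPs (log2 1.02, SE 0.10, adjusted p = 1.62e-05). Both lay just past 2-fold and lost the call with protein-coding genes and pseudogenes alone (0.95 and 0.94) and without replicate 3 (0.97 and 0.94), *nrde-2* also without replicate 1 (0.96) and *met-2* without replicate 2 (0.97). *nrde-1* (77.4, 76.4 and 63.7 RPM in the inputs, 173, 177 and 169 RPM in the IPs, log2 0.91) and *nrde-3* (17.3, 18.98 and 15.5 RPM in the inputs, 38.0, 36.7 and 34.8 RPM in the IPs, log2 0.73) were not called, though both groups stood apart. With library totals alone both were called, at 1.25 and 1.08.

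*nrde-4*, *set-25* and *set-32* had log2 fold changes of 0.32, 0.19 and 0.09 in *simr-1* and were not called. *nrde-4* stood at 80.5 to 85.3 RPM in the IPs and at 41.9 to 58.2 RPM in the inputs. *set-25* stood at 257 to 284 RPM in the IPs and 171 to 202 RPM in the inputs, and *set-32* at 133 to 142 RPM and 91.3 to 110.0 RPM. In these genes, every *simr-1* IP lay above every wild-type IP in RPM, a separation that was not counted over all features.

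Tested against wild-type, the ratio in *simr-1* was higher for 2 of the 7 genes, *set-32* (log2 1.15, SE 0.14, adjusted p = 0.000109) and *nrde-4* (log2 1.03, SE 0.21, adjusted p = 0.00161), and lower for 1, *nrde-3* (log2 -1.10, SE 0.19, adjusted p = 0.000551). Among all 15524 features, 9.3% passed as higher and 22.1% as lower. *set-25* (0.97) and *met-2* (0.79) were short of 2-fold, and *nrde-1* (-0.56) and *nrde-2* (0.09) were not called. This comparison depends on the scaling more than any other: the median over all features was -0.64 in the main fit, -0.29 in DESeq2 and 0.22 with library totals alone. Relative to that median *nrde-4*, *set-25*, *set-32* and *met-2* were higher and *nrde-3* lower in all 3, while *nrde-3* (-0.76 in DESeq2 and -0.23 with library totals) lost its call and *nrde-1* changed sign, to 0.31 with library totals. *set-25* and *met-2* were called in DESeq2 (1.32 and 1.14) and with library totals (1.85 and 1.68), and *nrde-4* lost its call without replicate 3 (0.96). Among all calls, the share that was higher was 29.6% in the main fit, 60.5% in DESeq2 and 90.3% with library totals.

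**Figure D3:**
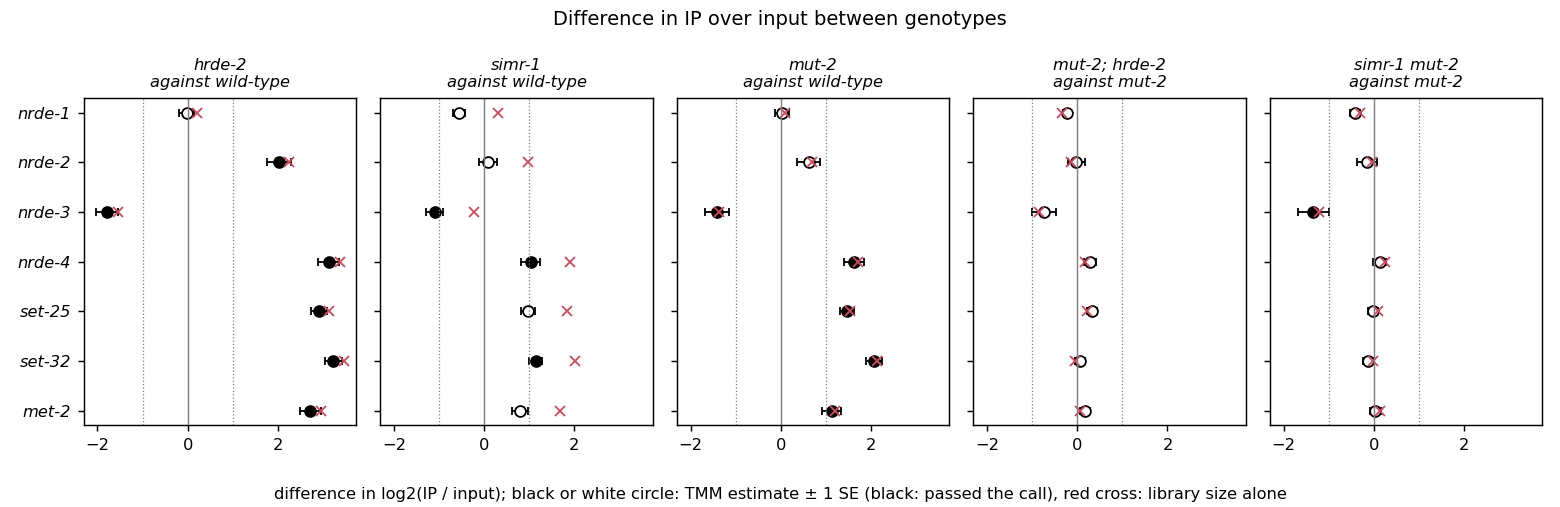
Difference in log2 IP over input between genotypes for each gene, with the TMM estimate ± 1 SE as a circle (black where it passed the call, white where it did not), the estimate with library totals alone as a red cross, and dotted lines at 2-fold. In *hrde-2* against wild-type 6 of 7 genes passed, and in the strains with a second mutation against *mut-2* only *nrde-3* in *simr-1 mut-2* did.

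In *mut-2*, none of the 7 genes was called in either direction between IP and input, where 7.45% of all 12404 features tested were called higher and 8.71% lower. The log2 fold changes ran from -0.20 for *nrde-3* and 0.07 for *set-25* to 0.94 for *nrde-2*, beside a median of -0.01 over all features tested. *nrde-2* stood at 606, 672 and 841 RPM in the inputs and at 1483, 1526 and 1542 RPM in the IPs (SE 0.13, adjusted p = 7.49e-05), and passed the call without replicate 3, at 1.09, and with library totals alone, at 1.10. *nrde-1* stood at 79.8, 78.8 and 78.5 RPM in the inputs and at 165, 172 and 149 RPM in the IPs (log2 0.87, SE 0.07, adjusted p = 1e-06), and was called with library totals alone (1.03). *met-2* stood at 398, 399 and 421 RPM in the inputs and at 741, 793 and 725 RPM in the IPs (log2 0.73, SE 0.09).

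For the genes that were low in the wild-type IP, the inputs of *mut-2* were higher than in wild-type and the IPs higher again. *nrde-4* stood at 91.1, 103 and 108 RPM in the inputs and at 139, 148 and 128 RPM in the IPs. *set-25* stood at 359.7, 383 and 336 RPM in the inputs and at 408, 440.1 and 414 RPM in the IPs, and *set-32* at 209, 216 and 227 RPM and at 325, 331 and 294 RPM. *nrde-3* went the other way in the IP, with 17.4, 17.2 and 12.4 RPM in the inputs and 13.6, 13.4 and 18.0 RPM in the IPs, which overlapped and lay below every wild-type IP.

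Against wild-type, the ratio in *mut-2* was higher for 4 of the 7 genes and lower for 1, where 28.3% of all 15628 features passed as higher and 9.71% as lower. The higher ones were *set-32* (log2 2.06, SE 0.18, adjusted p = 2.84e-06), *nrde-4* (1.63, SE 0.23, adjusted p = 4.52e-05), *set-25* (1.47, SE 0.16, adjusted p = 6.79e-06) and *met-2* (1.13, SE 0.21, adjusted p = 0.000489). *nrde-3* was the lower one (-1.41, SE 0.26, adjusted p = 0.000514), and *nrde-2* (0.62) and *nrde-1* (0.03) were not called. The median over the 7 genes was 1.13, beside 0.43 over all features, and the latter was 0.05 in DESeq2 and 0.49 with library totals. *met-2* lost its call in DESeq2 (0.75), in the fit with the name ending as a term (0.71) and without replicate 2 (0.90), while the other 4 kept theirs throughout. The comparisons of *hrde-2*, *simr-1* and *mut-2* share the wild-type libraries and are set side by side for that reason only.

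In *mut-2; hrde-2*, *nrde-2* stood at 1043, 1122 and 839 RPM in the inputs and at 2004, 1908 and 1960 RPM in the IPs, and *met-2* at 537, 607 and 523 RPM and at 1087, 1014 and 1116 RPM. Both IPs were close to the level in *hrde-2* alone, but the inputs were higher, so that the log2 fold changes were 0.91 (SE 0.12, adjusted p = 4.83e-06) and 0.89 (SE 0.09, adjusted p = 5.16e-07) and not called. None of the 7 genes was called in either direction, where 1.56% of all 11260 features tested were called higher and 11.3% lower. *nrde-4* stood at 194 to 222 RPM, *set-25* at 584 to 638 RPM and *set-32* at 386 to 437 RPM in the IPs, each above all inputs of the strain (log2 0.56, 0.39 and 0.43). *nrde-3* stood at 14.6, 14.5 and 18.1 RPM in the inputs and at 10.1, 8.75 and 6.37 RPM in the IPs, without overlap (log2 -0.95, SE 0.18, adjusted p = 0.000213). It was called lower without replicate 1 (-1.195), without replicate 2 (-1.10) and with protein-coding genes and pseudogenes alone (-1.05).

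Against *mut-2*, none of the 7 genes passed in either direction, where 1.76% of all 12901 features passed as higher and 21.5% as lower. The differences ran from -0.74 for *nrde-3* (SE 0.26, adjusted p = 0.0312) to 0.33 for *set-25* (SE 0.11, adjusted p = 0.0189). Those of *nrde-2* (-0.02, SE 0.18), *set-32* (0.06, SE 0.11) and *met-2* (0.17, SE 0.12) had adjusted p-values of 0.941, 0.669 and 0.236. *nrde-3* passed without replicate 1, at -1.10, and was at -0.20 at the other end of the range over left-out replicates. Whether the effect of *hrde-2* differs between the presence and absence of *mut-2* was not tested as such.

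In *simr-1 mut-2*, 1 of the 7 genes was called, *nrde-3*, as lower in the IP, and none as higher, where 1.85% of all 11558 features were called higher and 11.2% lower. *nrde-3* stood at 15.0, 19.7 and 11.2 RPM in the inputs and at 7.67, 6.17 and 5.32 RPM in the IPs (log2 -1.38, SE 0.30, adjusted p = 0.0054), on 48 to 110 counts per library. Without replicate 2 it lost the call (-1.205, adjusted p = 0.0992). The other genes had log2 fold changes from 0.22 (*set-25*) to 0.95 (*nrde-2*), with *nrde-2* at 1735 to 2162 RPM and *met-2* at 1098 to 1143 RPM in the IPs. *nrde-2* and *met-2* passed with library totals alone (1.06 and 1.03).

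Against *mut-2*, the ratio in *simr-1 mut-2* was lower for *nrde-3* alone (log2 -1.34, SE 0.34, adjusted p = 0.0182), and no gene was higher, where 0.106% of all 13174 features passed as higher and 10.8% as lower. The 1420 features behind the latter share numbered 473 to 860 with a replicate left out. The call of *nrde-3* was lost without replicate 2 (-1.13, adjusted p = 0.286) and without replicate 3 (-0.97, adjusted p = 0.0753). The other 6 differences lay between -0.41 (*nrde-1*, SE 0.11, adjusted p = 0.0193) and 0.13 (*nrde-4*, SE 0.15, adjusted p = 0.658).

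The inputs show how the small RNA level of these genes varied without the IP. No gene of the 7 was called higher or lower in any of the 5 input comparisons. Of all features, 2.55% were called higher and 5.86% lower in *hrde-2* against wild-type, 1.06% and 7.34% in *simr-1* against wild-type, and 6.93% and 18.6% in *mut-2* against wild-type. Against *mut-2*, the shares were 0.22% and 2.61% for *mut-2; hrde-2*, whereas *simr-1 mut-2* had 1.63% and 3.37%. The inputs of *hrde-2* differed from wild-type by log2 fold changes of -0.44 (*nrde-2*, SE 0.13, adjusted p = 0.0502) to 0.46 (*nrde-3*, SE 0.18, adjusted p = 0.129). In *simr-1* they ran from -0.16 (*nrde-2*) to 0.26 (*nrde-4*).

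In *mut-2* inputs, levels stood above wild-type by less than 2-fold in *met-2* (log2 0.82, SE 0.21, adjusted p = 0.00667) and *nrde-4* (0.81, SE 0.19, adjusted p = 0.00438). The same held for *set-32* (0.80, SE 0.16, adjusted p = 0.00155) and *set-25* (0.66, SE 0.17, adjusted p = 0.0068). These genes averaged 406, 101, 217 and 359.7 RPM in *mut-2* inputs against 183, 45.6, 99.2 and 181 RPM in those of wild-type. The groups did not overlap, which was not counted over all features. With library totals alone *nrde-4*, *set-32* and *met-2* were called higher (1.14, 1.13 and 1.15), and with the name ending as a term all 4 were (1.22 to 1.36). Without replicate 1 or without replicate 3, by contrast, all 4 had adjusted p-values above 0.05: *met-2* stood at 0.52 and 0.38 (adjusted p = 0.139 and 0.166), *nrde-4* at 0.58 and 0.33 (0.0767 and 0.155), *set-32* at 0.55 and 0.40 (0.0573 and 0.0658) and *set-25* at 0.35 and 0.37 (0.201 and 0.113). Features called higher in these inputs fell from 940 to 285 and 276 in the same fits. These fits kept the count filter at 3 libraries although fewer were fitted, and tested 10893 and 11171 features instead of 13558. The replicate and the filter thus changed together, and their parts were not tested. *nrde-3* differed by -0.32 (SE 0.23, adjusted p = 0.226) and *nrde-1* by -0.24 (SE 0.13, adjusted p = 0.138). Between *mut-2; hrde-2* and *mut-2* the values lay between -0.28 (*nrde-3*) and 0.21 (*nrde-2*), and between *simr-1 mut-2* and *mut-2* between -0.32 (*nrde-3*) and 0.20 (*set-32*).

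**Figure D4:**
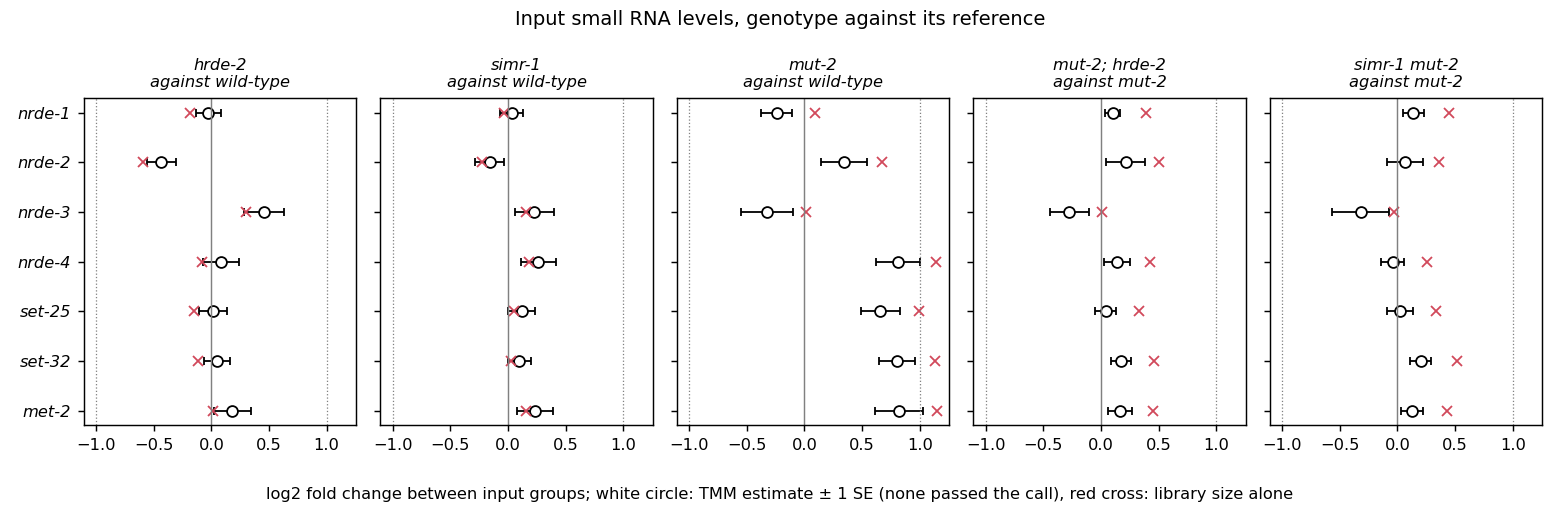
Log2 fold change of input small RNAs between each genotype and its reference for each gene, with the TMM estimate ± 1 SE as a circle, the estimate with library totals alone as a red cross, and dotted lines at 2-fold. No TMM estimate reached 2-fold, and the largest, that of *met-2* in *mut-2* against wild-type, was 0.82.

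Summed over the 7 genes, small RNAs took 1040 ± 135 RPM of the wild-type inputs and 1042 ± 152 RPM of the wild-type IPs (SD, n = 3). The sum was 861 ± 26.5 RPM in the inputs and 4284 ± 194 RPM in the IPs of *hrde-2*, and 1012 ± 97.6 and 2207 ± 69.98 RPM in *simr-1*. In *mut-2* it was 1885 ± 132 and 3323 ± 87.3 RPM. Adding *hrde-2* to *mut-2* gave 2563 ± 212 and 4446 ± 135 RPM, while *simr-1 mut-2* had 2464 ± 190.5 and 4416 ± 199.6 RPM. The IP sums of every mutant thus lay above those of wild-type, and the replicates of *hrde-2* and of both strains with a second mutation lay between 4111 and 4639 RPM. The share of IP counts on all protein-coding genes was higher in the mutants as well. It was 77.6 to 78.4% in wild-type, 91.6 to 93.5% in *hrde-2*, 82.4 to 83.2% in *simr-1* and 83.5 to 84.5% in *mut-2*. It was 95.6 to 95.8% in *mut-2; hrde-2* and 94.2 to 94.5% in *simr-1 mut-2*. How other sets of genes moved was not tested. *nrde-2* made up the largest part of the sum in each condition.

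The order of the levels per kilobase in the *hrde-2* IP was *nrde-2* at 459 ± 49.4, *met-2* at 279.9 ± 16.03, *set-25* at 214 ± 9.24 and *set-32* at 205 ± 12.4 RPM per kb, of which the last pair overlapped. *nrde-4* at 74.3 ± 7.29, *nrde-1* at 56.8 ± 4.16 and *nrde-3* at 4.66 ± 0.916 RPM per kb followed without overlap. Among the 19711 protein-coding genes, *set-25* lay at the 87.4th percentile in the wild-type IP and at the 98.0th in the *hrde-2* IP, *set-32* at the 84.2nd and the 97.8th, and *nrde-4* at the 68.3rd and the 88.6th. *nrde-3* moved from the 75.0th to the 66.1st and *nrde-1* from the 92.6th to the 85.2nd. The median protein-coding gene fell from 1.70 to 0.561 RPM per kb between these IPs.

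The profiles of the 7 genes were compared over the 12 condition means, as log2(mean RPM + 1), without sorting them into groups. *nrde-4*, *set-25* and *set-32* were alike, with Pearson correlations of 0.99 for each pair, and *met-2* correlated with them at 0.92 to 0.96 and with *nrde-2* at 0.95. *nrde-1* correlated best with *nrde-2*, at 0.85, and *nrde-3* correlated negatively with all others, from -0.76 with *set-32* to -0.10 with *nrde-1*. The conditions share lysates between input and IP and are not independent, so these values describe the profiles only. Among 6135 genes with at least 10 RPM in at least 3 conditions and no exon overlap, the profiles most like *set-25* were those of *riok-3* and *patr-1* (r = 1.00 for both), and those most like *set-32* were *hgrs-1* and *arx-4* (r = 1.00 for both). For *nrde-4* they were *M04B2.4* and *tebp-1* (1.00 for both), for *met-2* *dnj-10* and the pseudogene WBGene00022218 (1.00 for both), and for *nrde-2* *unc-45* and *F01G4.4* (0.99 for both). Those of *nrde-1* were *unc-132* (0.98) and *cacn-1* (0.97). The profiles most like *nrde-3* were those of the histone genes *his-60* (0.92) and *his-67* (0.91), with *his-60* at a mean of 149 RPM in IPs of wild-type but 48.0 RPM in those of *hrde-2*.

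Other genes of the pathway were read from 3 lists, to be set beside the shares over all features, 17.3% higher and 16.7% lower in the wild-type IP and 33.7% higher and 36.1% lower for the ratio in *hrde-2* against wild-type. Of 8 genes that work with the nuclear Argonautes or affect them, 1 was called higher in the wild-type IP, *hrde-1* itself (log2 1.23, SE 0.22, adjusted p = 0.00128), and 2 lower, the helicase gene *emb-4* (-1.50) and the Argonaute gene *ergo-1* (-1.03). In *hrde-2* against wild-type, the ratio was higher for 5 of the 8, *emb-4* (3.14), *eri-1* (2.71), *morc-1* (2.66), *ergo-1* (2.02) and *hrde-2* (1.51), and lower for none. Of these, *hrde-2* is the gene mutated in the strain, so its value compares a mutant locus with a wild-type one. The medians over the 8 genes were -0.31 and 1.76.

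Of 10 genes for readers and anchors of H3K9 methylation and their partners, 2 were called higher in the wild-type IP, the heterochromatin protein gene *hpl-1* (log2 2.27, SE 0.21, adjusted p = 8.85e-05) and the perinuclear anchor gene *cec-4* (1.06, SE 0.25, adjusted p = 0.00531), and none lower. In *hrde-2* against wild-type 6 were higher, *lin-61* (2.54), *cec-6* (2.18), *cec-3* (2.17), *lin-65* (1.90), *lin-35* (1.89) and *lin-13* (1.48), and 1 lower, *hpl-1* (-2.15, SE 0.26, adjusted p = 3.39e-06). *hpl-1* averaged 161 RPM in IPs of wild-type but 17.01 RPM in those of *hrde-2*. Its inputs were lower as well, at 42.5 RPM in wild-type against 16.9 RPM in *hrde-2* (log2 -1.18, SE 0.15, adjusted p = 0.000962), whereas those of *nrde-3* averaged 15.5 and 18.99 RPM. The medians over the 10 genes were 0.27 and 1.68.

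Of 18 other SET domain and histone demethylase genes, 17 were found by symbol, and 15 were tested in wild-type and 16 in the comparison of *hrde-2* with wild-type. In the wild-type IP 1 was called higher, *set-23* (log2 2.22), and 2 lower, the H3K36 methyltransferase gene *met-1* (-1.51) and *jmjd-2* (-1.32). In *hrde-2* against wild-type 10 had a higher ratio, namely *met-1* (3.53), *mes-2* (3.18), *mes-4* (3.14), *jmjd-2* (3.10), *jmjd-1.2* (2.97), *set-9* (2.96), *set-26* (2.81), *spr-5* (2.20), *set-17* (1.82) and *set-21* (1.82). The 2 with a lower ratio were *set-23* (-2.03) and *set-13* (-4.18), the latter from a mean of 6.37 RPM in IPs of wild-type to 0.32 RPM in those of *hrde-2*. The medians over the tested genes were -0.31 and 2.01, beside 0.15 and -0.07 over all features tested.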

How the data were processed

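The authors used FASTX-Toolkit for adapter removal and quality filtering and Cutadapt 3.4 against size-standard reads, then aligned the rest with Bowtie2 2.5.0 and counted them per gene with featureCounts (Subread 2.0.1) on WS258, without regard to strand and with reads over several genes split between them. The deposited tables thus hold expected counts, unnormalized. Values that were not whole, 10.4% of those above 0, were rounded. Whole counts had been assumed in the design. RPM was computed over all counts on features. Symbols came from Ensembl 115, which holds 30911 of the 31106 features.

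Features that reached 10 counts in 3 or more of the libraries fitted were tested with edgeR 4.0.16 (R 4.3.3; TMM, quasi-likelihood F test, Benjamini-Hochberg adjustment over all features tested) in 16 comparisons. A call needed 2-fold, an adjusted p of at most 0.05 and, except for differences of ratios, a mean of 10 RPM in the higher group. Tests were run on simulated counts in which few features changed, in equal numbers up and down. In *hrde-2* against wild-type 33.7% of features passed as higher and 36.1% as lower. The simulation therefore does not check the scaling in such a setting. Input and IP of 1 replicate came from 1 lysate, and their deviations from condition means correlated at 0.0022 to 0.52, above 0.1 in 16 of 18 lysates. No pair of replicates differed by less than sampling noise. The totals per library, 4276687 to 17449202, set the precision, and 10 RPM stands for at least 42.8 counts.

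DESeq2 1.42.0, library totals, other filters, a term for the name ending, lysate blocks and left-out replicates were alternatives. With a replicate left out, the count filter still asked for 3 libraries, so it was stricter and fewer features were tested. Separation of groups without overlap was not counted over all features. All 7 genes were named in each comparison and list genes where called in wild-type or in *hrde-2* against wild-type. The 7 genes and the lists were chosen with earlier results of these data known. Figures were drawn with matplotlib 3.10.9. No sequences were used here.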

Additional observations from a re-analysis of the deposited data

Results flagged for a closer look

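Differences of the IP-over-input ratio between genotypes that passed the test of the difference itself are listed here on the log2 scale. Against wild-type, the ratio in *hrde-2* was higher for *set-32* (3.23), *nrde-4* (3.13), *set-25* (2.91), *met-2* (2.72) and *nrde-2* (2.03) and lower for *nrde-3* (-1.79). In *simr-1* it was higher for *set-32* (1.15) and *nrde-4* (1.03) and lower for *nrde-3* (-1.10). In *mut-2* it was higher for *set-32* (2.06), *nrde-4* (1.63), *set-25* (1.47) and *met-2* (1.13) and lower for *nrde-3* (-1.41). Against *mut-2*, the ratio in *simr-1 mut-2* was lower for *nrde-3* (-1.34). Groups of 3 libraries were not examined for single outlying libraries.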

How the results depend on the processing

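Over the 7 genes and 16 comparisons, the replicate block (lysate number for ratios, replicate number for inputs) changed no call and no direction, nor did dropping the 10 RPM minimum in the 77 values of the 11 comparisons that use it. DESeq2 changed the call or direction of 10 of 112 values, library totals alone 29, the term for the name ending 26, no count filter 12, protein-coding genes and pseudogenes alone 13, and leaving out replicates 1, 2 and 3 changed 11, 12 and 18. The 5 genes called in the *hrde-2* IP and the 6 called in *hrde-2* against wild-type kept their calls in all of them, while *nrde-1* gained one in the *hrde-2* IP in DESeq2 (1.12), with library totals (1.16), with the ending as a term (1.09) and without the count filter (1.23). The causes of the changes were not tested, and fits with a replicate left out also had a stricter count filter. Depth limits *nrde-3* most, with 48 to 641 counts per library. Between the inputs of different genotypes the replicate numbers share no lysate, with deviations correlated above 0.1 in 1 of 15 pairs, so that the block there describes a shared number only.

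In wild-type, 1 gene was called higher in the IP with library totals, and 2 were called lower in DESeq2, 3 with library totals, 3 with protein-coding genes and pseudogenes and 1 to 2 with replicates left out. Genes called higher in the *simr-1* IP numbered 4 with the ending as a term, 4 with library totals, 0 with protein-coding genes and pseudogenes and 0 to 1 with replicates left out. In *mut-2* they numbered 2, 2 and, without the count filter, 1, and 0 to 1 with replicates left out. In *mut-2; hrde-2*, 2 were higher with the ending as a term and 2 without the count filter, and 1 was lower with protein-coding genes and pseudogenes and 0 to 1 with replicates left out. In *simr-1 mut-2*, 2 were higher with the ending as a term, with library totals and without the count filter, and 0 to 1 lower with replicates left out. Between *simr-1* and wild-type, the ratio was higher for 4 genes in DESeq2, with the ending as a term and with library totals, and for 1 to 2 with replicates left out, and lower for 0 under these 3 settings and with protein-coding genes and pseudogenes. With the ending as a term, *set-25* (1.46) and *met-2* (1.29) gained the call here and *nrde-3* (-0.62) lost it. Against *mut-2*, 0 to 1 ratios were lower in *mut-2; hrde-2* and 0 to 1 in *simr-1 mut-2* with replicates left out. In the inputs of *mut-2* against wild-type, 4 genes were higher with the ending as a term and 3 with library totals.

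Values that changed sign were uncalled. In the wild-type IP, *met-2* (0.04) was -0.011 in DESeq2, -0.31 with library totals, -0.084 with protein-coding genes and pseudogenes and -0.032 to 0.063 with replicates left out. In the *mut-2* IP, *nrde-3* (-0.20) was 0.0155 with the ending as a term, and *set-25* (0.07) was -0.0154 with protein-coding genes and pseudogenes. For ratios against wild-type, *nrde-1* was 0.22 in *hrde-2* (-0.02) and 0.31 in *simr-1* (-0.56) with library totals, and in *mut-2* (0.03) it was -0.35 in DESeq2, -0.40 with the ending as a term, -0.018 with protein-coding genes and pseudogenes and -0.14 to 0.0176 with replicates left out. *nrde-2* in *simr-1* (0.09) was -0.032 to 0.27 with replicates left out.

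For ratios in *mut-2; hrde-2* against *mut-2*, *nrde-2* (-0.02) was 0.0019 in DESeq2, 0.023 without the count filter and -0.31 to 0.099 with replicates left out. *set-32* (0.06) was -0.038 with the ending as a term, -0.0554 with library totals, -0.10 with protein-coding genes and pseudogenes and -0.13 to 0.18 with replicates left out. In *simr-1 mut-2*, *nrde-2* (-0.15), *set-25* (-0.01) and *set-32* (-0.12) were 0.14, 0.29 and 0.18 without the count filter and -0.15 to 0.047, 0.0058 to 0.22 and -0.071 to 0.076 with replicates left out, and *set-25* was 0.11 in DESeq2, 0.075 with the ending as a term and 0.0965 with library totals.

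In the inputs of *hrde-2*, *nrde-1* (-0.03) was 0.0153 with the ending as a term, *nrde-4* (0.08), *set-25* (0.01) and *set-32* (0.05) were -0.0845, -0.15 and -0.11 with library totals, and the 4 were -0.062 to 0.0136, -0.035 to 0.20, -0.031 to 0.062 and -0.0175 to 0.077 with replicates left out. In those of *simr-1*, *nrde-1* (0.03) was -0.033 with library totals, -0.0042 with protein-coding genes and pseudogenes and -0.043 to 0.045 with replicates left out, and *nrde-2* (-0.16) was 0.031 with the ending as a term. In those of *mut-2*, *nrde-1* (-0.24) and *nrde-3* (-0.32) were 0.36 and 0.16 with the ending as a term and 0.091 and 0.016 with library totals, and *nrde-2* (0.34) was -0.12 to 0.23 with replicates left out. Against *mut-2*, *nrde-3* in *mut-2; hrde-2* (-0.28) was 0.0095 with library totals and *set-25* (0.04) was -0.022 to 0.0965 with replicates left out. In *simr-1 mut-2*, *nrde-4* (-0.04) was 0.030 with the ending as a term and 0.25 with library totals, *set-25* (0.02) was -0.0015 with protein-coding genes and pseudogenes, and *nrde-2* (0.06), *nrde-4* and *set-25* were -0.15 to 0.25, -0.23 to 0.064 and -0.068 to 0.074 with replicates left out.

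Counts over all features moved as well. Without the RPM minimum, 4205 features were higher and 3645 lower in the wild-type IP (2508 and 2422 with it), 5379 lower in *hrde-2* (2222), 2959 lower in *simr-1* (1062) and 2770 lower in *mut-2* (1081). Features with a higher ratio in *simr-1* against wild-type numbered 1444, 2604 in DESeq2 and 4126 with library totals, and those with a lower one 3432, 1701 and 445. In *mut-2* against wild-type they numbered 4418 and 1518, and 2758 and 2388 in DESeq2. In *simr-1 mut-2* against *mut-2*, 14 were higher, 34 with the replicate block and 159 without the count filter. Inputs called higher in *mut-2* numbered 940, 2402 with library totals and 3672 with the ending as a term, and in *simr-1 mut-2* against *mut-2* 186, 69 with the replicate block and 428 with library totals. With replicates left out, calls higher in the *mut-2* inputs numbered 276 to 740, those in *simr-1 mut-2* inputs against *mut-2* 20 to 260 higher and 222 to 629 lower (386), and those in *mut-2; hrde-2* inputs 15 to 35 higher (25). Ratios were lower for 1575 to 3071 features in *simr-1* and 899 to 1247 in *mut-2* against wild-type, and against *mut-2* lower for 473 to 860 (1420) and higher for 1 to 102 in *simr-1 mut-2*, and higher for 78 to 239 (227) in *mut-2; hrde-2*. Calls higher in the IP numbered 2267 to 2898 (3402) in *hrde-2*, 108 to 163 (176) in *mut-2; hrde-2* and 131 to 215 (214) in *simr-1 mut-2*. The share of calls that was higher moved with library totals from 50.9% to 32.8% in the wild-type IP, from 39.1% to 60.3% in the *simr-1* IP, and in inputs from 27.1% to 50.6% in *mut-2* against wild-type, from 7.76% to 31.9% for *mut-2; hrde-2*, and from 32.5% to 59.9% in *simr-1 mut-2*, against *mut-2*. In DESeq2 it moved from 74.4% to 53.6% for the ratio in *mut-2* against wild-type.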
